A study of Ailuropoda melanoleuca with 25 samples.

Results

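CXCL13, MADCAM1 and NR5A1 were described across 5 tissues of the giant panda. They are 3 of the 25376 genes in the expression table, with the identifiers ENSAMEG00000002513, ENSAMEG00000002668 and ENSAMEG00000011166. They were picked because their levels were far higher in the spleen than elsewhere, so the contrast of the spleen with the other tissues is given as a description, with no test. Heart, liver, spleen, lung and kidney were taken from each of 5 pandas that had recently died, with 1 messenger RNA library per tissue and panda, so libraries with the same number came from the same animal. The labels record no treatment and no genetic modification of any panda. The labels give age as 27 for panda 1, 9 for panda 2 and 0.5 for pandas 3, 4 and 5, with no unit. Panda 5 was male and the others were female. Panda 1 died of ovarian cancer, the cause for panda 2 is written as "ileac pssion", and pandas 3, 4 and 5 died of a coronavirus infection. Each library is whole tissue, and the number of cells of a type and the RNA per cell cannot be told apart in it.

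CXCL13 is a chemokine that draws B cells, through their receptor CXCR5, into the follicles of lymphoid organs, and it is made mainly by follicular dendritic cells and other stromal cells. MADCAM1 is an adhesion molecule on vessel walls, bound by lymphocytes that carry the integrin of the ITGA4 and ITGB7 chains. It is known from venules of the gut and from the lining of the marginal sinus of the spleen. NR5A1, also called steroidogenic factor 1, is a nuclear receptor best known from the adrenal gland and gonad, and it is needed for the vessels of the spleen to form normally. Lymphotoxin from lymphocytes keeps up CXCL13 and MADCAM1 in stromal cells, and TLX1, NKX2-3 and NKX3-2 are transcription factors that act in the development of the spleen.

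Levels are given as FPKM, in which the reads on a gene are divided by its length and by the total of its library. The whole reads behind the FPKM values could be recovered, and reads counted on genes ranged from 13149580 to 21383380 per library, and from 13448104 to 17390350 in the spleen. The gene lengths behind the values were 333 bases for CXCL13, 1143 for MADCAM1 and 1398 for NR5A1. Of markers of the labelled spleen, 14 of 16 B cell and plasma cell genes and 3 of 3 red pulp macrophage genes were called higher there than in each other tissue, as were 2.12% of 15399 genes tested. All of these markers stand in the study's own spleen list, chosen on these samples, so this count is no independent check of the label. The stromal label could not be checked, since of 16 fibroblastic reticular and mural cell markers only DES and MYH11 could be matched to an identifier, and neither was called higher in the spleen than in each other tissue.

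CXCL13 was abundant in every spleen library and nearly unread elsewhere. Its spleen FPKM was 124 in panda 1, 75.5 in panda 2, 128 in panda 3, 121 in panda 4 and 185 in panda 5. The mean was 127 ± 39.1 (SD, n = 5), from 338 to 1074 reads per library and 3161 in all. Panda 5 stood highest and panda 2 lowest, and the other three lay close together. In the lung CXCL13 had 0 reads in all 5 libraries, so its spleen level was at least 1058-fold higher, taking 3 reads over the 5 lung libraries as the floor. One library of each remaining tissue held any reads. These were 1 read in heart 4 (0.179 FPKM), 1 read in liver 3 (0.162 FPKM) and 3 reads in kidney 5 (0.534 FPKM). A single read of this short gene is worth between 0.140 and 0.228 FPKM, so these levels were at or under the floor of 3 reads. The ratio of spleen to kidney was 1157, with an exact 95% counting interval of 395 to 5611, which covers counting error only.

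MADCAM1 had the highest spleen level of the 3 and was the one that was also read in other tissues. Its spleen FPKM was 305 in panda 1, 321 in panda 2, 210 in panda 3, 160 in panda 4 and 173 in panda 5, with a mean of 234 ± 74.8 (SD, n = 5). The older pandas, 1 and 2, were both above the 3 young ones. In the kidney it was 4.004, 2.17, 1.04, 2.16 and 1.76 FPKM in pandas 1 to 5, a mean of 2.23 ± 1.09 (SD, n = 5) from 200 reads. The heart values were 1.13, 0.171, 0.106, 0.313 and 2.22 FPKM, and hearts 1 and 5 were well above the other three. The lung values were 0.917, 0.532, 0.445, 0.479 and 0.720 FPKM, a mean of 0.619 ± 0.198 (SD, n = 5) from 53 reads. The liver was lowest, with 0.563, 0.260, 0, 0.165 and 0.286 FPKM. The lowest spleen library, at 160 FPKM, was thus far above the highest library of any other tissue, at 4.004. The spleen to kidney ratio of the summed reads was 105 (exact 95% counting interval 91.6 to 122), the smallest of all ratios between the spleen and another tissue for the 3 genes.

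NR5A1 varied most among the spleen libraries. Its FPKM was 177 in panda 1, 88.3 in panda 2, 96.1 in panda 3, 48.1 in panda 4 and 128 in panda 5, with a mean of 107 ± 48.1 (SD, n = 5). That is a coefficient of variation of 44.8%, against 30.9% for CXCL13 and 32.0% for MADCAM1, and the counting error behind these libraries was small, at 1016 to 3389 reads each. Panda 1 was highest and panda 4 lowest. Outside the spleen no library held more than 3 reads. Summed over the 5 libraries of a tissue, there were 7 reads in lung, 6 in kidney, 4 in heart and 2 in liver, and the highest single value was 0.124 FPKM in kidney 2. The spleen to lung ratio was 1577, with an exact 95% counting interval of 765 to 3923. NR5A1 directs steroid synthesis in the adrenal cortex, which lies beside the kidney, yet its kidney level was at most that of 3 reads in each of the 5 libraries.

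**Figure D1:**
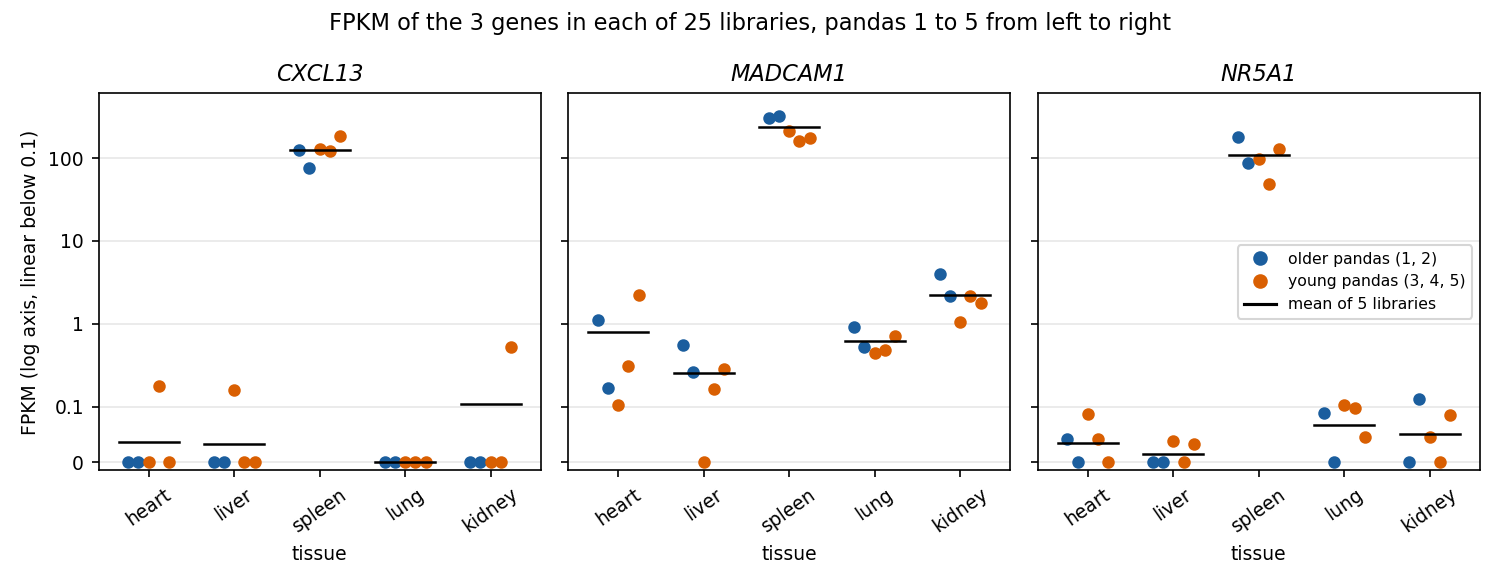
FPKM of CXCL13, MADCAM1 and NR5A1 (y axis, log scale that turns linear below 0.1) in each of 25 libraries by tissue (x axis), 1 point per panda, with the mean of 5 as a line. The spleen libraries lie between 48.1 and 321 FPKM, and outside the spleen only MADCAM1 rises above 1 FPKM, in the kidney and in hearts 1 and 5.

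The choice of the 3 genes rests on the spleen contrast, whose values are as follows. On the scale of log2(FPKM + 1), the smallest of the 4 differences between the spleen and another tissue was 6.82 for CXCL13 (against the kidney), 6.54 for NR5A1 (against the lung) and 6.19 for MADCAM1 (against the kidney). They stood at ranks 1, 2 and 4 of the genes tested in all 4 comparisons. Among genes with a name, the next below them were TLX1 at 5.82, LMAN1L at 5.66 and NKX2-3 at 5.54. The background to these is that 2.12% of 15399 genes were higher in the spleen than in each other tissue, at an adjusted p under 0.05 and a log2 difference over 2. The spleen held 99.9% of the summed tissue means of CXCL13, 98.4% of that of MADCAM1 and 99.8% of that of NR5A1.

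The order of the other 4 tissues was not used in choosing the genes and could be tested. For CXCL13 and NR5A1 no order could be read, since both were at a few reads in each of these tissues and too low for the fits across all genes. In 9 exact two-sided permutation tests (the 3 genes in the pairs of kidney, heart and liver), 0 passed an adjusted p of 0.05 and 1 had an unadjusted p under it. That one was MADCAM1 in the kidney against the liver, where the difference of mean log2(FPKM + 1) was 1.32. It was higher in the kidney in 5 of 5 pandas with no overlap. The exact permutation p was 0.00794, the smallest that 5 libraries against 5 allow, and 0.0714 when adjusted over the 9. A single pair thus could not pass after adjustment, so the count of 0 decides nothing. MADCAM1 in the kidney against the heart differed by 0.92 (exact permutation p = 0.0714, adjusted 0.321), and in the heart against the liver by 0.40 (exact permutation p = 0.278, adjusted 0.5). The order of kidney and heart, and of heart and liver, could not be settled with these libraries. The heart libraries overlapped with those of both neighbours.

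The lung was compared with the kidney, liver and heart across all genes with limma. MADCAM1 was the only one of the 3 with a mean above 1 FPKM in either tissue of a pair, and that held only for the lung and kidney. MADCAM1 was lower in the lung than in the kidney by a log2 difference of -0.94 (SE 0.26, adjusted p = 0.0094), in 5 of 5 pandas and without overlap of the libraries. MADCAM1 entered this fit only through its kidney mean of 2.23 FPKM, as its lung mean was 0.619. The filter could admit it only with a higher kidney level, so the p-value is given as a description. The difference missed the size of 2 that a call also required. On both criteria 12.2% of 17177 genes were called between lung and kidney, and the share passing on p alone was not counted. The same test called 29.0% of 16558 genes between lung and liver and 22.9% of 16518 between lung and heart. The median gene was 0.43 higher in the lung, so MADCAM1 was 1.37 log2 units below the median gene. The sign of the difference was the same with every other scaling tried.

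Cells and signals that partner CXCL13 were also compared between tissues. The partner genes below could be named only because they stand in the study's own list of tissue-specific genes, chosen on these samples, so their direction is not independent evidence. Of 15 genes of the CXCL13 axis, 4 besides CXCL13 had an identifier, and 3 of them (CXCR5, CCR6 and CH25H) were called higher in the spleen than in each other tissue, against 2.12% of all genes tested. The median difference of the 4 from the lung was 2.35 on the log2 scale, against 0.03 for all genes tested. CXCR5, the receptor for CXCL13, had spleen values of 11.4, 4.43, 15.1, 5.30 and 10.6 FPKM in pandas 1 to 5. It was read in all 5 lungs as well, at 0.713, 1.35, 2.84, 0.974 and 0.619 FPKM, where its ligand had 0 reads. CXCR5 was higher in the spleen than in the lung by 2.13 (SE 0.34, adjusted p = 0.00055). CCR6, a chemokine receptor of B cells, differed from the lung by 2.57 (SE 0.36). CH25H makes an oxysterol from which a guidance signal for B cells is formed. It was at 63.0, 242, 286, 201 and 57.3 FPKM in the spleen, with its smallest difference from the kidney, 4.84 (SE 0.75). CXCR3, a receptor of activated T cells, had a spleen mean of 1.84 FPKM and was not called.

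ITGA4 encodes a chain of the integrin that binds MADCAM1. It was the single gene with an identifier, other than MADCAM1, in the list of 17 addressin genes. Its spleen values were 43.6, 13.8, 32.1, 21.0 and 46.9 FPKM, and its lung values of 11.2, 11.5, 19.6, 11.8 and 18.0 FPKM overlapped them. The difference of 0.98 from the lung (SE 0.32, adjusted p = 0.038) fell short of the size required, so ITGA4 was not called higher in the spleen than in each other tissue. It was called higher in the lung than in each of the heart, liver and kidney, as were 5.32% of 18021 genes. ITGA4 was named through the study's heart list, so its difference between lung and heart is no independent evidence. MADCAM1 in the same lungs was below 1 FPKM in every library.

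Of 17 genes in a list of the lymphotoxin and alternative NF-kB pathway, 3 had an identifier. TNFRSF13C and TNFSF11 were called (2.12% of all genes were), and the lymphotoxin gene LTA was not. The median difference of the 3 from the lung was 3.03 on the log2 scale. TNFRSF13C, the BAFF receptor of B cells, had a spleen mean of 37.8 ± 6.27 FPKM (SD, n = 5). TNFSF11, also called RANKL, a TNF family ligand of lymphoid tissue inducer cells, T cells and stromal cells, was at 13.2, 2.60, 10.7, 5.84 and 18.0 FPKM. LTA, the lymphotoxin alpha ligand, was low, at 4.63, 0.725, 5.27, 1.18 and 3.27 FPKM in the spleen. In the lung LTA was at 1.10, 0, 0.473, 0.111 and 0.206 FPKM, and the ranges overlapped. LTA was higher than in the lung by 1.42 (SE 0.37, adjusted p = 0.012) and was not called. In the same 5 spleens pandas 2 and 4 had the lowest values of CXCR5, ITGA4, LTA and TNFSF11.

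NR5A1 was set beside other transcription factors of spleen development. Of 12 such genes, 5 besides NR5A1 had an identifier. TLX1, NKX2-3, NKX3-2 and TLX3 were called higher in the spleen than in each other tissue, against 2.12% of all genes tested. These called genes were named through the study's spleen list, so their calls are a description. The median difference of the 5 from the lung was 5.16 on the log2 scale. TLX1 was at 104, 79.9, 40.9, 35.2 and 53.3 FPKM in the spleen and had 2 reads in all in the other 20 libraries, both in lung 4. NKX2-3 was at 131, 54.3, 41.5, 24.9 and 71.5 FPKM, with 0.682 FPKM in heart 5 as the highest value elsewhere. NKX3-2 was at 36.4, 53.2, 8.77, 16.9 and 15.2 FPKM and had 3 reads elsewhere. HOXC9, a homeobox gene of the posterior body, went the other way, with 10.1 to 19.0 FPKM in the kidney and reads in 1 spleen library. It was named through the study's kidney list, so this direction follows from the choice. For NKX2-3 as for NR5A1, panda 1 was highest, panda 5 next and panda 4 lowest.

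Few steroid-related genes could be compared with NR5A1. Of 20 genes in this list, NR5A2, CYP11A1 and HSD3B1 had an identifier besides NR5A1, the first and last from the study's liver list, and only CYP11A1 was called. CYP11A1 carries out the first step of steroid synthesis from cholesterol. It was at 68.1, 38.7, 71.0, 28.0 and 54.2 FPKM in the spleen and reached at most 0.535 FPKM elsewhere, with a smallest difference of 5.28 (SE 0.27, from the lung). NR5A2, the closest relative of NR5A1 and a regulator of bile acid and cholesterol genes, was instead highest in the liver, with 16.9, 32.8, 21.8, 32.1 and 22.1 FPKM. It was 3.03 log2 units lower in the spleen than in the liver (SE 0.26), with a spleen mean of 2.12 ± 0.314 FPKM (SD, n = 5). NR5A2 was named through the liver list and NR5A1 was picked for its spleen level. That the 2 receptors had different tissues of highest level thus follows from the choice and is a description, with no test. NR5A1 is also known from the adrenal cortex. Of a list of 11 adrenal cortex markers only CYP11A1 had an identifier, so the part of adrenal tissue in these values was not tested.

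Of the markers of cells among which the 3 genes are known, CR2 was the only one of 5 follicular dendritic cell markers with an identifier to be called. Of all genes tested, 2.12% were. CR2 was named through the study's spleen list and the other markers through its liver list, C4BPA also through its lung list. The count thus reflects the naming and says nothing on these cells. CR2, the complement receptor of B cells and follicular dendritic cells, was at 88.1, 37.4, 76.3, 43.7 and 64.5 FPKM in the spleen. In the lung it was at 0.938, 0.694, 5.71, 0.583 and 1.15 FPKM. The median difference of the 5 from the lung was 0.29. The others were CLU and SERPINA1, which the liver secretes, and MFGE8 and C4BPA. MFGE8 was alike in both tissues, at 129 to 211 FPKM in the spleen and 112 to 199 in the lung. C4BPA was far higher in the lung, with a mean of 84.2 FPKM against 1.73 in the spleen. CD8A, which marks the lining of the sinuses in the human spleen and is also a T cell gene, was the only 1 of 15 sinus markers with an identifier. Its spleen mean was 36.8 ± 6.07 FPKM (SD, n = 5), and its difference from the lung was 3.63 (SE 0.20). The red pulp macrophage genes CD5L, SPIC and SIGLEC1 were at 1324 ± 212, 74.1 ± 51.1 and 44.7 ± 16.4 FPKM (SD, n = 5), and all 3 were called.

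The lung held lymphocyte genes at levels where CXCL13 was unread. The 16 B cell and plasma cell genes and the 12 T cell genes all stand in the study's spleen list, chosen on these samples. CD79A, POU2AF1, IGHM, JCHAIN and CD3E stand in its lung list too. The counts that follow are thus a description and no independent evidence. Of the 16 B cell and plasma cell genes, 5 were called higher in the lung than in each of the heart, liver and kidney, and of the 12 T cell genes 6 were, against 5.32% of 18021 genes. The summed B cell genes were at 394 to 1455 FPKM in the lungs and 7763 to 12854 in the spleens, and the summed T cell genes were at 67.6 to 137 and 247 to 2021. In the spleen 14 of the 16 and 10 of the 12 were called higher than in each other tissue, against 2.12% of all genes tested. Among them IGHM, the constant chain of immunoglobulin M, had a spleen mean of 7022 ± 2070 FPKM, JCHAIN, which joins the units of IgM and IgA, 2311 ± 1497, and CD79B, a signalling chain of the B cell receptor, 142 ± 43.3 (SD, n = 5). The T cell receptor chains CD3E, CD3G and CD3D were at 249 ± 210, 227 ± 204 and 226 ± 200 FPKM (SD, n = 5). Of genes of neighbouring tissue, CLPS, the pancreatic colipase, was read in all 5 spleens, at 1.97, 1.75, 3.22, 4.68 and 3.10 FPKM in pandas 1 to 5, with 65 reads in all. It had 0 reads in the heart and liver, 9 in the lung and 1 in the kidney, and it stands in the study's spleen list. PNLIP, the pancreatic lipase, had 0 reads in the spleen, and GP2 and PNLIPRP2 had 2 each. The summed keratins of mesothelium (KRT7, KRT8 and KRT18) were at 10.4 to 62.3 FPKM in the spleen. The part of pancreas or mesothelium in the spleen values was not tested.

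**Figure D2:**
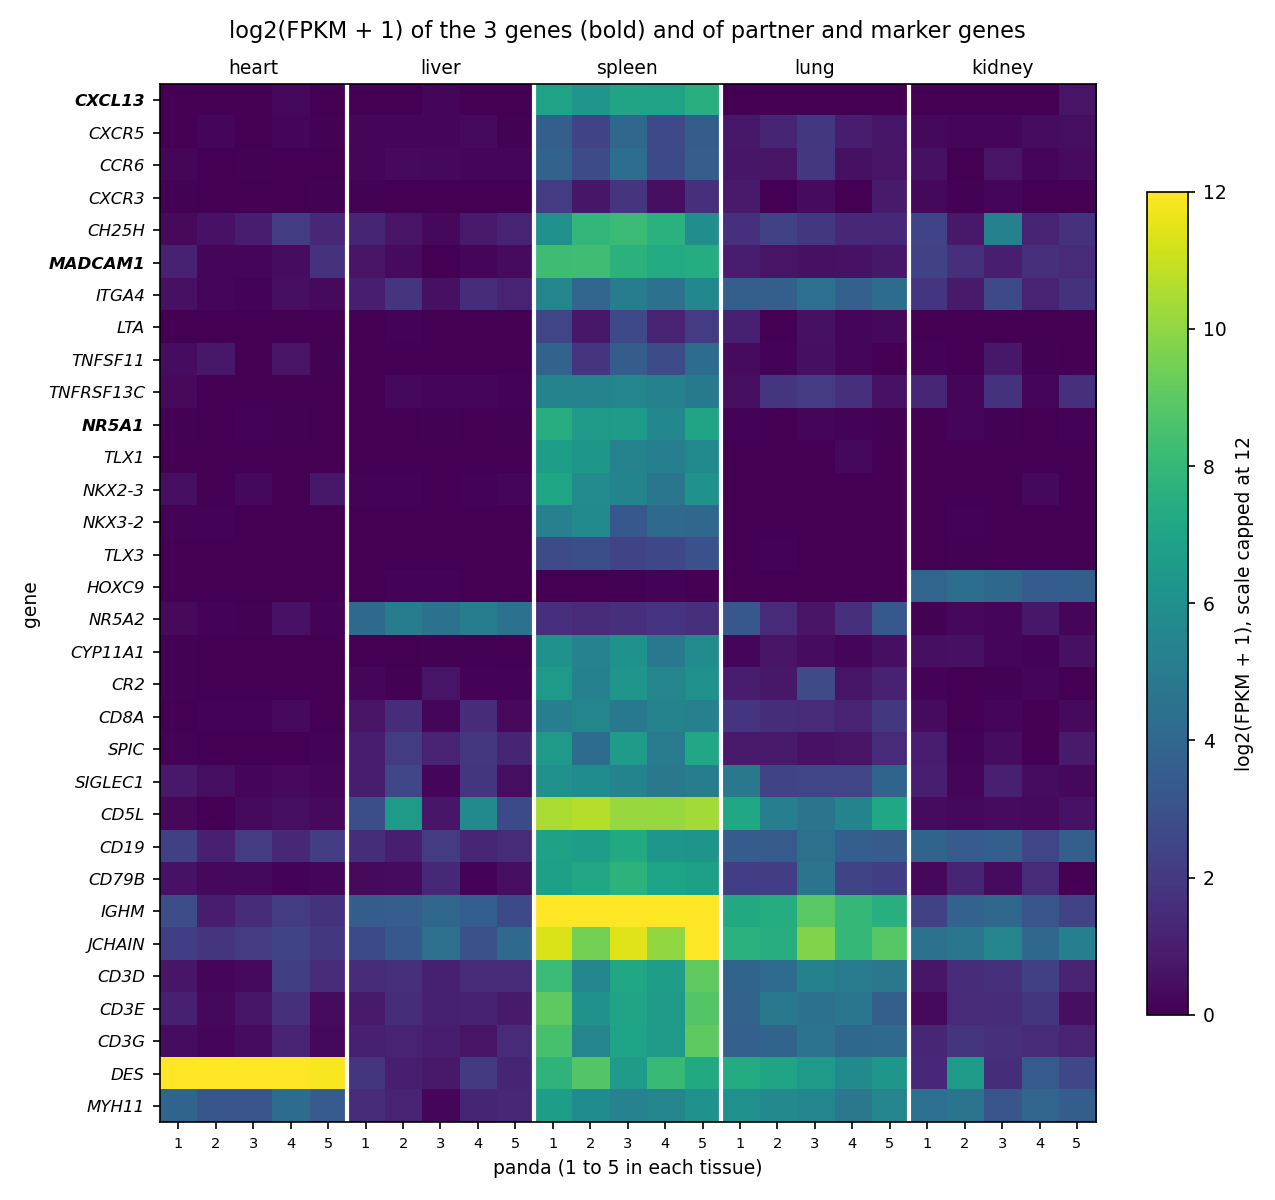
Log2(FPKM + 1), as colour from 0 to 12, of CXCL13, MADCAM1 and NR5A1 (bold) and of partner and marker genes (rows) in 25 libraries (columns, pandas 1 to 5 within each tissue). CXCL13, NR5A1, TLX1, NKX3-2 and CYP11A1 are bright in the 5 spleens and near 0 in the lung, while IGHM, JCHAIN, ITGA4 and the CD3 genes are also seen in the lung, NR5A2 is brightest in the liver and HOXC9 in the kidney.

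**Figure D3:**
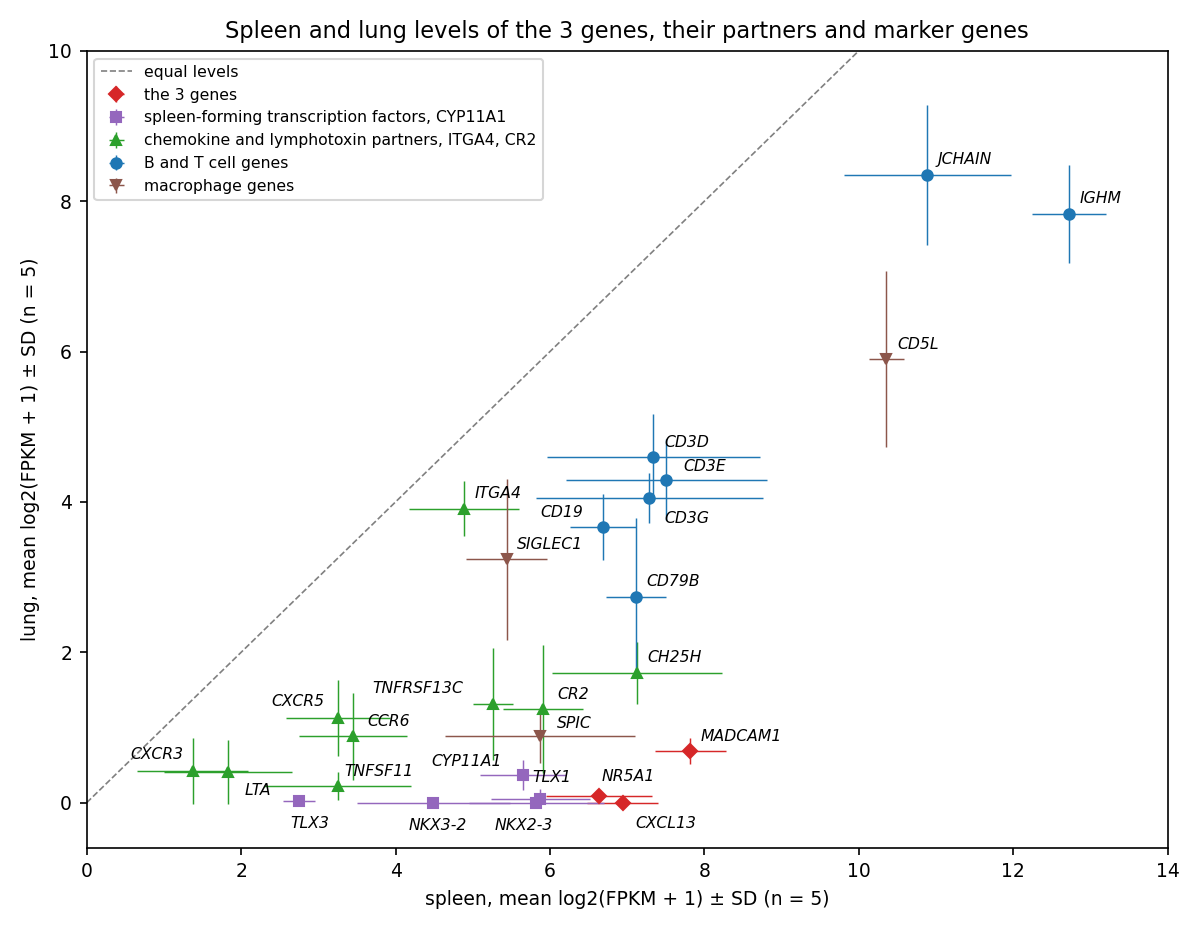
Mean log2(FPKM + 1) ± SD over 5 libraries in the spleen (x axis) and in the lung (y axis), 1 point per gene, with a dashed line of equal levels. CXCL13 and NR5A1 lie at the bottom with the spleen-forming transcription factors, MADCAM1 lies slightly above them, and the B and T cell genes and ITGA4 lie higher.

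Within the spleen the 3 genes did not keep a fixed ratio. MADCAM1 was 4.25 times CXCL13 in panda 2 and 0.933 times in panda 5, and lay between these values in the other three. MADCAM1 was 1.36 to 3.64 times NR5A1, and CXCL13 was 0.699 to 2.50 times NR5A1. The panda with the highest level differed from gene to gene, being panda 5 for CXCL13, panda 2 for MADCAM1 and panda 1 for NR5A1. With 5 spleens, no correlation between them was computed.

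The young pandas (3, 4 and 5) were compared with the older ones (1 and 2) in the spleen with limma, a contrast not used to choose the genes. The young pandas also died in another year and of another cause than the older ones, and these cannot be told apart from age. None of the 3 genes passed. MADCAM1 was at 160 to 210 FPKM in the young and 305 to 321 in the older pandas, without overlap, with a log2 difference of -0.80 (SE 0.21, unadjusted p = 0.0089, adjusted p = 0.304). In the kidney, its values in the young (1.04 to 2.16 FPKM) were also below those of the older pandas (2.17 and 4.004), by a narrow margin, and this was not tested. CXCL13 differed by 0.55 (SE 0.31, adjusted p = 0.613) and NR5A1 by -0.57 (SE 0.49, adjusted p = 0.761), and for both the ranges overlapped. Across the 15346 genes tested, 0 were called and 0 had an adjusted p under 0.05, while 10.6% had an unadjusted p under 0.05.

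Among the genes of spleen development, the young minus older difference was -1.08 for TLX1 (SE 0.26, unadjusted p = 0.0055, adjusted p = 0.265) and -1.67 for NKX3-2 (SE 0.34, unadjusted p = 0.0028, adjusted p = 0.248), both without overlap. NKX2-3 had -0.99 (SE 0.54, adjusted p = 0.602) with overlap, and TLX3 had -0.13. Some sums of other markers also lay apart between the ages. With so few spleens, the ranges of a gene or a sum can lie apart by ordering alone. The share of all genes whose ranges lay apart was not counted. The sum of DES and MYH11 was 134 to 316 FPKM in the young and 325 to 491 in the older spleens. The summed red pulp macrophage genes were at 1196 to 1462 and 1597 to 1699 FPKM. The summed pancreas genes were instead higher in the young, at 3.10 to 4.73 FPKM against 1.80 to 2.02. Their part in the difference of MADCAM1 was not tested. The B cell sum overlapped, at 7763 to 11944 and 9496 to 12854 FPKM, and so did the T cell sum. IGHM, the largest part of the B cell sum, did not overlap, at 3989 to 6831 FPKM in the young and 8176 to 9547 in the older spleens. In the lung none of the 3 genes passed the filter on low values for this contrast, and 0 of 15858 genes were called, with 1.14% at an unadjusted p under 0.05.

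**Figure D4:**
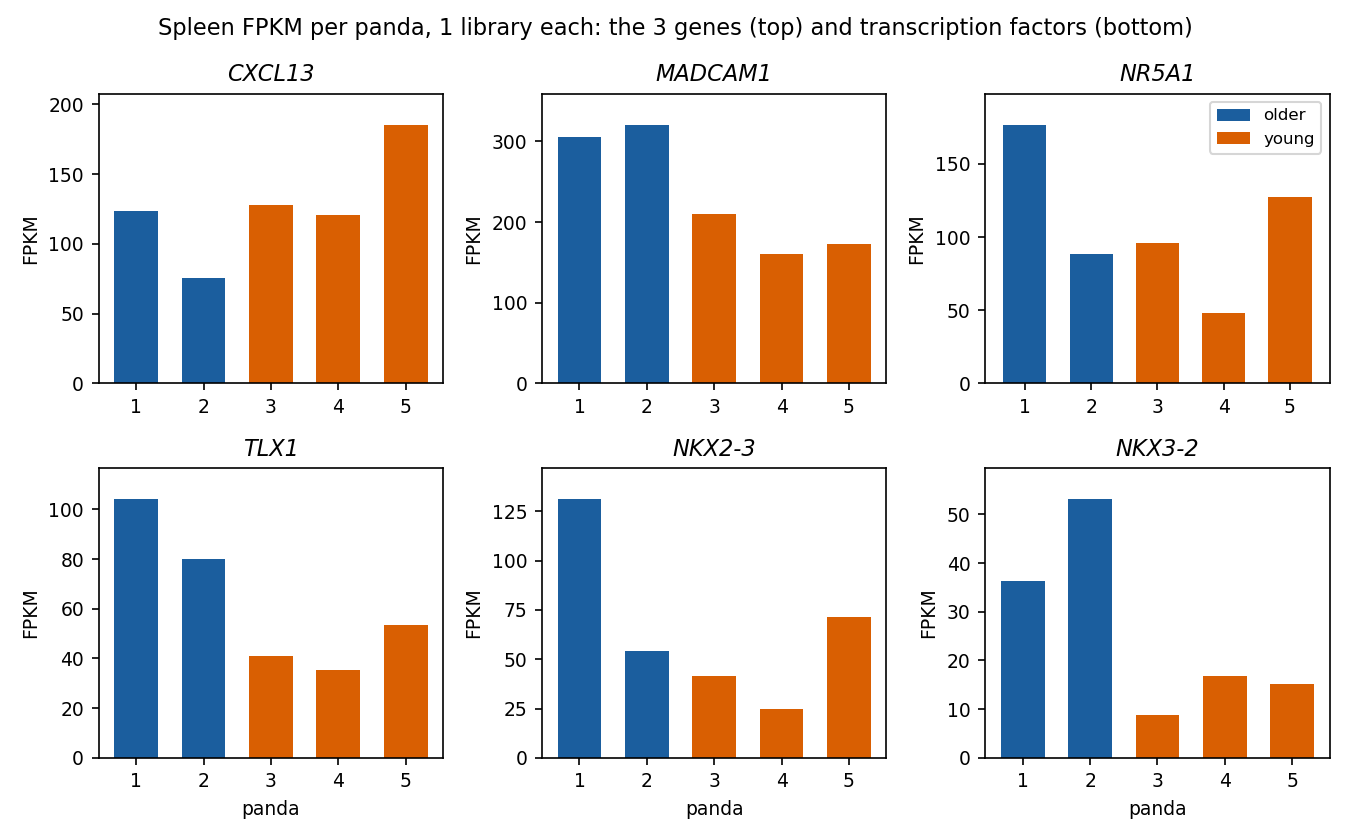
Spleen FPKM (y axis, from 0) per panda (x axis), 1 library per bar, for CXCL13, MADCAM1 and NR5A1 (top) and TLX1, NKX2-3 and NKX3-2 (bottom), older pandas in blue and young ones in orange. Both older pandas are above all 3 young ones for MADCAM1, TLX1 and NKX3-2, and the ranges overlap for CXCL13, NR5A1 and NKX2-3.

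The genes most like each of the 3 were sought by Pearson's r of log2(FPKM + 1) over the 25 libraries, among 18700 other genes with a mean above 1 FPKM in a tissue. The 25 points share pandas and libraries and fall into the spleen and the rest, so r mainly reflects the spleen level and is a description. For CXCL13 the 5 most alike named genes were CNTNAP5, TLX3, NR5A1, SH3GL3 and CYP11A1, with r from 0.991 to 0.994. For NR5A1 they were LMAN1L, TLX1, CPLX3, NKX2-3 and CYP11A1, with r from 0.995 to 0.998. LMAN1L, a lectin-like protein of the secretory pathway, was at 102, 55.4, 71.6, 28.2 and 63.8 FPKM in the spleens, highest in panda 1 and lowest in panda 4 as was NR5A1. For MADCAM1 they were DKK2, CYP11A1, NEGR1, CPLX3 and TLX1, with lower r, from 0.979 to 0.985. DKK2, a secreted modulator of WNT signalling, shared with MADCAM1 a kidney level above 1 FPKM, at a mean of 2.99, beside a spleen mean of 103 ± 13.3 FPKM (SD, n = 5). Between the 3 genes r was 0.993 for CXCL13 and NR5A1, 0.977 for MADCAM1 and NR5A1 and 0.973 for CXCL13 and MADCAM1.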

How the data were processed

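Messenger RNA of 5 tissues from 5 pandas was sequenced in paired ends. The authors aligned the reads to the panda genome ailMel1 with HISAT2, added transcripts assembled with Cufflinks, counted reads per gene with HTSeq, and deposited FPKM values with no stated normalization between libraries. No further column of another sample was present. The authors tested counts with DESeq; here the unit is FPKM, so limma 3.58.1 in R 4.3.3, with a variance trend, was run on log2(FPKM + 1), per pair of tissues, on genes with a mean above 1 FPKM in either. A call needed a Benjamini-Hochberg adjusted p under 0.05 and a log2 difference beyond 2. The fold on this scale understates changes of low genes. The fits were tested on simulated data.

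Whole reads were recovered, to within 0.05 reads, for 24207 of 24207 genes above 0 from the step by which low values rise. The gene lengths this gave were multiples of 3 for 87.4% of Ensembl genes, so they are largely coding lengths. HTSeq was run at its defaults and the sources used here do not name its strand setting, so reads of a gene and of an antisense partner may not be told apart. Intervals and floors cover counting error only.

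Libraries with one number share age, sex and date of death in the labels and were taken as 1 panda. After tissue means were removed, pairs of the same panda correlated at 0.0600 to 0.521 (median 0.367), and pairs of different pandas at -0.469 to 0.377 (median -0.122). Python 3.11.15 with scipy 1.17.1 was used.

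The 3 genes and the 14 gene lists were chosen with earlier results of these data known. Names came from the study's table of tissue-specific genes, which pairs 1704 of the 25376 identifiers with a symbol, so 62 of 188 list genes had one, 48 of them in the study's spleen list. The genes named were the 3, their direct partners with an identifier, up to 3 genes of each list with the highest spleen mean among those called higher in the spleen than in each other tissue, and the 5 most alike named genes. CXCR3, TLX3, HOXC9, HSD3B1, DES, MYH11, the pancreas genes and the keratins, and the list genes named as not called, were added after their values were seen. No genome of the build used was at hand, so no sequence or coordinate is given.

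The alternatives were a pseudocount of 0.1, quantile normalization, TMM factors (30% of log ratios and 5% of levels trimmed), no filter, limma-voom on the recovered reads, the panda as a block, 1 fit of all libraries, and each library left out.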

Additional observations from a re-analysis of the deposited data

Results flagged for a closer look

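Of 32 groups of 5 libraries examined (the 3 genes in each tissue and their partners in the spleen and lung), 5 held a library farther from the rest than Dixon's critical value of 0.71 allows. In 4 of them the other libraries had 0 reads, so that 1 library with any read passes whatever its level: CXCL13 in heart 4 (0.179 FPKM, 1 read), in liver 3 (0.162 FPKM, 1 read) and in kidney 5 (0.534 FPKM, 3 reads), and TLX1 in lung 4 (0.209 FPKM, 2 reads). The last, of a kind that chance gives in about 1 in 20 groups, was CR2 in lung 3, at 5.71 FPKM against 1.15 in the next lung. The same lung had the highest lung values of CXCR5 (2.84 FPKM) and CD79B (23.4 FPKM).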

How the results depend on the processing

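Every alternative for CXCL13, MADCAM1 and NR5A1 kept the spleen far above the other tissues. The smallest log2 difference of the spleen was 6.67 to 6.99, 6.04 to 6.36 and 6.33 to 6.80 for the 3 with 1 library left out. With TMM factors it was 6.02, 5.52 and 5.81, and with a pseudocount of 0.1 it was 9.72, 6.71 and 9.25. The number of genes higher in the spleen than in each other tissue, 326, was 662 with the pseudocount of 0.1, 674 with limma-voom, 216 with TMM factors and 293 to 373 with 1 library left out. Between lung and kidney 2103 genes were called, against 3719 with the pseudocount, 3814 with limma-voom and 1964 to 2399 with 1 library left out. Between lung and liver 4807 were called, against 8428, 8720 and 3958 to 5133, with 2209 under quantile normalization and 2765 under TMM factors. Between lung and heart 3790 were called, against 6680, 6945 and 3660 to 3977, with 2177 and 2235. The causes were not tested. The median gene was 1.16 higher in the spleen than in the heart and 1.29 higher than in the liver, and 0.07 and 0.02 with TMM factors.

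With the panda as a replicate block, 334 genes were higher in the spleen than in each other tissue and MADCAM1 differed between lung and kidney by -0.94 (adjusted p = 0.0067), and the block changed no call on the 3 genes. That adjusted p ranged from 0.0023 to 0.024 over the alternatives, with a difference from -1.70 to -0.77. Between young and older spleens 0 genes were called under every alternative, and the adjusted p of MADCAM1 ranged from 0.261 to 0.938. Exact sign changes within pandas could not give less than p = 0.0625 and none of the 9 tests of order passed under any alternative. A single test at its smallest p could not pass the adjustment over 9, so this does not show equal levels. Among the lists, the called genes of the lymphotoxin and alternative NF-kB list fell from 2 to 1 under quantile normalization. With the pseudocount of 0.1 and with limma-voom, 1 of 4 pancreas genes was called.

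The median gene moved from 0.03 to 0.19 in the spleen between young and older pandas with TMM factors. At 0 to 3 reads per library, levels of CXCL13 and NR5A1 outside the spleen cannot be ranked.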

Other observations

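In the RefSeq annotation of a later panda assembly, CXCL13 lies between CNOT6L and CCNG2, MADCAM1 between ODF3L2 and TPGS1, and NR5A1 between ADGRD2 and NR6A1. The gene after NR6A1, OLFML2A, was the only neighbour within 2 genes of any of the 3 with a name in the files. Its mean was 17.3 FPKM in the spleen against 1.33 in the lung, 0.884 in the kidney, 0.485 in the liver and 0.131 in the heart. Names exist only for genes in the study's list of tissue-specific genes, so a tissue difference of a named neighbour follows from the choice. The levels of the other neighbours could not be read.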
